A study of Mus musculus with 15 samples.

Results

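Genes of cholesterol synthesis, of its control by sterol regulatory element binding proteins (SREBPs), and of cholesterol uptake, transport, storage and export were examined in cultured adult neural stem cells (aNSCs) of the mouse. The 32 genes are known members of these pathways, picked by function rather than by a cutoff on their values but with earlier results of these data known, and all 32 were found among the 53801 genes counted. They comprised 19 enzymes of the mevalonate and sterol pathway, 5 genes of SREBP control, and 8 genes that move, store or export cholesterol. The list does not hold every enzyme or receptor of the pathway.

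Cells make cholesterol from acetyl-CoA. The early enzymes build mevalonate and the isoprenoid diphosphates, squalene is then formed and closed into lanosterol, and the late enzymes turn lanosterol into cholesterol. SREBPs are held in the endoplasmic reticulum by Scap and the Insig proteins, and are released and cut when sterols are scarce, after which they enter the nucleus and raise transcription of the synthesis enzymes and of lipoprotein receptors. When oxysterols accumulate, liver X receptors (LXRs) instead raise transcription of the exporters Abca1 and Abcg1, of the receptor-degrading ligase Mylip and of Srebf1. In the brain, cholesterol is made locally because lipoproteins of the blood do not cross the blood-brain barrier.

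The cells came from the subventricular zone of 2-month-old C57BL6/J-129sv mice and were expanded in suspension with EGF and bFGF. All mice carried the Rosa26-CreERT2 transgene, which is expressed broadly and is not confined to stem cells, and had 1 (Fl/+) or both (Fl/Fl) of their Trrap alleles flanked by loxP sites. Trrap is a scaffold protein of several histone acetyltransferase (HAT) complexes, and 4-hydroxytamoxifen (4-OHT) activates the recombinase that deletes its floxed segment. The study asked how loss of Trrap changes transcription in neural cells. The 15 libraries formed 3 groups of 5, namely Fl/+ untreated and Fl/+ 4-OHT cultures, both from mice 19, 24, 26, 35 and 36, and Fl/Fl 4-OHT cultures from mice 27, 28, 29, 37 and 39. The labels give 5 days of treatment, whereas the study's methods describe a shorter exposure followed by a period without 4-OHT, and which applied here was not settled. Each group held 3 mice labelled male and 2 labelled female. The Fl/+ 4-OHT cultures can lose 1 Trrap allele, so that exposure to 4-OHT, recombinase activity and loss of 1 allele cannot be told apart in them. Values below are given in the order of the mouse numbers just listed, as CPM (counts scaled to a common depth), computed on library sizes scaled by the TMM method of edgeR.

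Between 25.72 M and 32.19 M counts were assigned per library, so 3 counts, the floor for a gene not detected, stood for 0.0932 to 0.119 CPM. The floxed gene Trrap was at 193, 214, 184, 179 and 181 CPM in Fl/+ untreated, 138, 204, 171, 165 and 142 CPM in Fl/+ 4-OHT, and 92.9, 115, 142, 89.2 and 82.8 CPM in Fl/Fl 4-OHT cultures. Its counts fell by 0.64 ± 0.16 on the log2 scale (SE) between the treated groups (adjusted p = 0.0115), and the library Fl/Fl 29 lay within the range of the Fl/+ 4-OHT libraries. The library labelled female Fl/Fl 39 expressed Y-linked genes and had Xist at 0.313 CPM, which goes against its label, and both libraries of mouse 36, labelled male, held Y-linked transcripts together with Xist at 5.89 CPM before and 74.7 CPM after 4-OHT. The 9 neural stem cell markers summed to 5631 to 10245 CPM per library, but their levels differed widely. In Fl/+ untreated cultures the means of Fabp7 and Vim were 3618 and 2553 CPM, and that of Prom1 was 15.0 CPM. The lowest Hes5 value among Fl/Fl 4-OHT libraries was 5.06 CPM. Of the 6 microglial markers, Cx3cr1, Tmem119, Aif1 and Ptprc had at most 3 counts in any library, whereas Csf1r and P2ry12 reached 25 and 30 counts. Of the 4 endothelial markers, Cdh5 and Cldn5 had at most 3 counts, Pecam1 reached 11, and Kdr had 118 to 231 counts per library. The glial transcripts Mbp and Gfap reached 1013 and 2264 CPM in library Fl/Fl 37, their highest values of all libraries. In bulk samples, fewer cells of a type and less RNA per cell cannot be told apart.

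Promoters were read first, because the members share known regulators. RefSeq promoter windows on GRCm38.p6, from 250 bases before to 50 bases after an annotated start, were matched for 26 of the 32 genes (35 windows), without Fdps, Fdft1, Sqle, Stard4, Npc1 and Abcg1. They were searched on either strand for the GC box GGGCGG, which Sp1 binds, the CCAAT box CCAAT, which nuclear factor Y binds, the sterol element TCACNCCAC and the E-box CACGTG. The synthesis enzymes had 19 windows from 16 of the 19 genes, with 3 windows for Dhcr7 and 2 for Pmvk. Among these windows, 78.9% held a CCAAT box, against 37.6% of the 14148 windows of genes tested after Trrap deletion and 37.4% of all 32851 windows. A GC box was present in 78.9% of them, against 61.8% and 35.7%. The E-box occurred in 15.8% of them, against 9.59% and 7.15%. The sterol element in this strict spelling was found only in the window of Hmgcs1, 137 bases before the start, against 1.12% of windows of tested genes and 1.24% of all windows. A match is a description of the letters and not of binding.

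Shown are the windows of the enzyme with the highest level per length (Hmgcs1, chr13:119690101-119690400, plus strand), of 2 enzymes with some of the largest falls after Trrap deletion (Mvd, chr8:122443373-122443672, minus strand, and Nsdhl, chrX:72918271-72918570, plus strand), and of the exporter with the largest rise (Abca1, chr4:53159846-53160145, minus strand). Each is written in the sense of transcription, and capitals mark the GC box, the CCAAT box and the sterol element on either strand, so that CCGCCC and ATTGG are the reverse complements of the first 2 motifs. No capitalised match overlaps a match of another motif in these windows.
Hmgcs1: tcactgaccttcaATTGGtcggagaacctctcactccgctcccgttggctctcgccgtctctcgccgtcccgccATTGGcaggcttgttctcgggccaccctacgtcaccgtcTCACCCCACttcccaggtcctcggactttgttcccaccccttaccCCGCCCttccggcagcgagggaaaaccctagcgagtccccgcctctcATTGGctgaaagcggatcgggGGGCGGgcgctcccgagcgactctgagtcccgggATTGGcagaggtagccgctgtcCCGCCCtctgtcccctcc
Mvd: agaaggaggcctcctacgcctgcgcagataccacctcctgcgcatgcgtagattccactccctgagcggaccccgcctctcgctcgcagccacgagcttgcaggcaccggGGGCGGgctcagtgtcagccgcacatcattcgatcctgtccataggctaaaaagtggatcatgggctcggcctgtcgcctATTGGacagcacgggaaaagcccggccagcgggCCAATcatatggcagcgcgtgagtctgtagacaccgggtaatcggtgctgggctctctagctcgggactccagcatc
Nsdhl: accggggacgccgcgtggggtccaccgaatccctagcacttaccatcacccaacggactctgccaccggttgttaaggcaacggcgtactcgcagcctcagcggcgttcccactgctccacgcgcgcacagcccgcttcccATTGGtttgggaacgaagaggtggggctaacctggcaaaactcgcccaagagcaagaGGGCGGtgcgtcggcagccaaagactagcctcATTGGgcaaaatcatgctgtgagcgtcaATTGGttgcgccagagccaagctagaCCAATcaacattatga
Abca1: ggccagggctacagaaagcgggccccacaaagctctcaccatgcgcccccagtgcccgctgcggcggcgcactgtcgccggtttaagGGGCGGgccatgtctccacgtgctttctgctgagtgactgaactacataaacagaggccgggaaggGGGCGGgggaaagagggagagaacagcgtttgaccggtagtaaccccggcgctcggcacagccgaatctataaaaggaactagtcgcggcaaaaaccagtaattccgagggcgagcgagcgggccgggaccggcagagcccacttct
The Hmgcs1 window held 4 CCAAT boxes, 3 GC boxes and the sterol element. Those of Mvd and Nsdhl held 2 and 4 CCAAT boxes and 1 GC box each. That of Abca1 held 2 GC boxes, 1 E-box, which is left in lower case, and no CCAAT box. The window of Tm7sf2, an enzyme that changed by -1.15 on the log2 scale after Trrap deletion, is not shown. It held 1 CCAAT box and 2 GC boxes.

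Levels between genes were compared in CPM per kb of exon in Fl/+ untreated cultures. Hmgcs1 was the highest at 341, followed by Cyp51 at 103 and Srebf1 at 75.6. Nsdhl, Mvd, Srebf2, Insig1 and Sqle followed between 62.6 and 67.3 CPM per kb, a span smaller than the spread between libraries, since the median coefficient of variation of the members was 24.2% in this group. At the low end stood Abcg1 at 0.916, Idi1 at 0.717 and Mylip at 0.447 CPM per kb. Reads that match several places were not counted, and 25.2% of the 51-base windows of Idi1, 26.1% of Fdps, 26.3% of Fdft1, 38.9% of Acat2 and 11.5% of Hmgcs1 also occur in other transcripts, among them paralogs, pseudogenes and neighbouring genes, so the levels of these genes are uncertain.

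**Figure D1:**
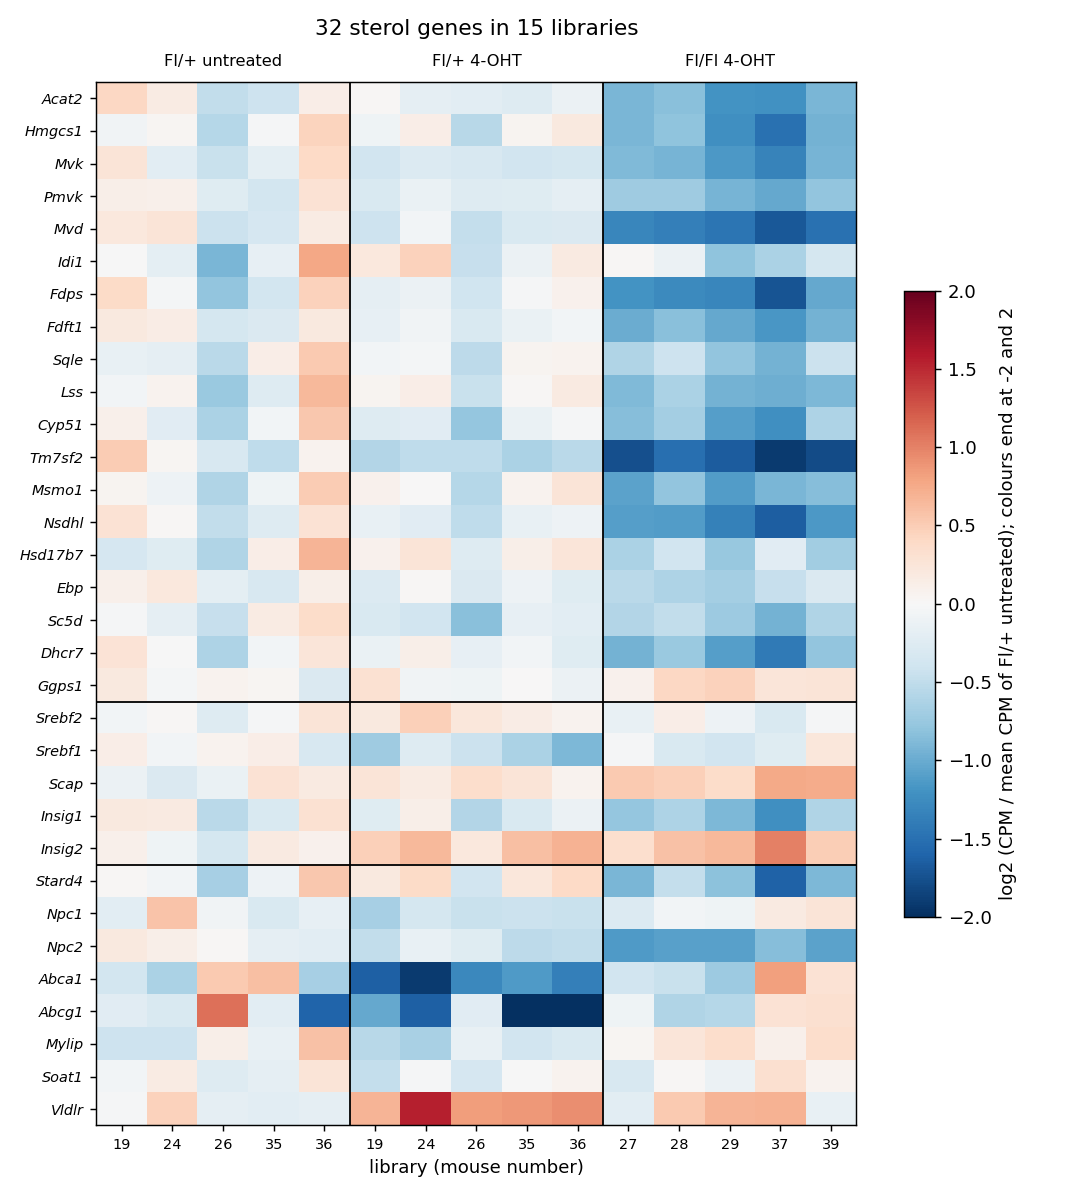
Colours give the log2 ratio of CPM in each library to the mean CPM of the 5 Fl/+ untreated libraries, with genes in rows (19 synthesis enzymes, 5 genes of SREBP control and 8 genes of uptake, transport, storage and export, from top to bottom) and libraries in columns by mouse number. Most enzyme rows are blue in all 5 Fl/Fl 4-OHT libraries, whereas Abca1 has its 5 lowest values in the Fl/+ 4-OHT libraries.

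In cells with both Trrap alleles floxed, transcripts of cholesterol synthesis were lower than in Fl/+ cells given the same 4-OHT treatment. Of the 32 members, 21 were lower and 7 were higher, against a background of 15.0% of the 15036 genes tested that were lower and 16.8% that were higher, and 4 did not pass the test. The synthesis enzymes accounted for 16 of the lower genes, with a median log2 fold change of -0.83 over the 19, whereas the median over all genes tested was 0.02. Exporters moved the other way, with Abca1 at a log2 fold change of 1.48 and Abcg1 at 1.21. The call of Abcg1 was lost in 8 of the 10 fits that left out 1 library. The 2 groups did not overlap for 15 members in the lower direction (background 11.4%) and for 4 in the higher direction (background 11.2%). Cell type markers moved in the same comparison. Of 9 neural stem cell markers 4 were lower and 0 higher by edgeR, as by DESeq2 and at an unadjusted p under 0.05 (Sox2, Hes5, Fabp7 at -0.61 and Prom1 at -0.65), with summed levels of 7367 to 9514 CPM in Fl/+ 4-OHT and 5631 to 9767 CPM in Fl/Fl 4-OHT libraries. Of 8 neuron markers 2 were lower, among them Dcx at -2.51 ± 0.41 (adjusted p = 0.00123), and 1 was higher (summed 851 to 1033 and 610.0 to 848 CPM). The ependymal marker Rsph1 was higher by 1.77 ± 0.26 (adjusted p = 0.000715), and of 8 astrocyte and 10 oligodendrocyte markers 1, Aldoc, was called by edgeR (higher), with 1 oligodendrocyte marker also higher by DESeq2. Mitochondrial transcripts took 0.849% to 1.74% of the counts in Fl/+ 4-OHT and 1.36% to 2.19% in Fl/Fl 4-OHT libraries. The part of these shifts in the sterol values was not tested.

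Hmgcs1, which encodes the HMG-CoA synthase that feeds mevalonate formation (chr13:119690379-119708260, plus strand), was at 1494, 1603, 1056, 1543 and 2131 CPM in Fl/+ untreated, 1478, 1725, 1069.6, 1624 and 1789.5 CPM in Fl/+ 4-OHT, and 830.4, 899, 669, 558 and 816 CPM in Fl/Fl 4-OHT cultures. Every Fl/Fl library lay below every Fl/+ library, and the treated groups differed by -1.01 ± 0.16 (log2, SE; adjusted p = 0.00111). The mevalonate kinases Mvk and Pmvk changed by -0.68 ± 0.09 (adjusted p = 0.00037) and -0.59 ± 0.08 (adjusted p = 0.00037), each with groups apart. Acat2, the cytosolic thiolase that condenses acetyl-CoA, changed by -0.84 ± 0.09 (adjusted p = 0.000147).

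Mvd, which decarboxylates mevalonate diphosphate (chr8:122433601-122443422, minus strand), was at 143, 148, 92.03, 97.9 and 139 CPM in Fl/+ untreated, 93.0, 119, 88.9, 99.9 and 102 CPM in Fl/+ 4-OHT, and 50.3, 48.2, 45.1, 38.2 and 44.1 CPM in Fl/Fl 4-OHT cultures. The lowest Fl/+ library of either group was thus well above the highest Fl/Fl library, and the difference between the treated groups was -1.14 ± 0.10 (adjusted p = 5.3e-05). Fdps, the farnesyl diphosphate synthase, was at 29.3, 21.9, 12.9, 17.3 and 30.8 CPM in Fl/+ untreated, 19.9, 20.7, 17.03, 22.2 and 23.9 CPM in Fl/+ 4-OHT, and 9.82, 9.31, 9.11, 6.77 and 11.04 CPM in Fl/Fl 4-OHT cultures. Its groups were also apart, with a difference of -1.15 ± 0.14 (adjusted p = 0.000271).

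Idi1, which isomerises isopentenyl diphosphate, had between 38 and 117 counts per library and stood at 2.91, 3.45, 1.82, 2.32 and 2.86 CPM in Fl/+ 4-OHT and 2.55, 2.31, 1.44, 1.62 and 1.98 CPM in Fl/Fl 4-OHT cultures. These groups overlapped, and the difference of -0.42 did not pass the test (95% interval -0.91 to 0.08, adjusted p = 0.181). Ggps1, which makes geranylgeranyl diphosphate for protein prenylation and so lies off the sterol branch, was the 1 enzyme called higher. It was at 50.6, 39.0, 38.4, 41.1 and 37.9 CPM in Fl/+ 4-OHT and 43.5, 54.5, 56.2, 48.3 and 48.8 CPM in Fl/Fl 4-OHT cultures, a difference of 0.29 ± 0.10 with overlapping groups (adjusted p = 0.0448). This call was lost in 8 of the 10 fits that left out 1 library.

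Transcripts for squalene formation and closure were lower as well. Fdft1, the squalene synthase, was at 166, 178, 151, 170.5 and 179.9 CPM in Fl/+ 4-OHT and 93.4, 105, 91.99, 82.8 and 96.9 CPM in Fl/Fl 4-OHT cultures, without overlap (-0.83 ± 0.08, adjusted p = 6.8e-05). Sqle, the squalene epoxidase, was at 335, 339, 241, 361 and 363 CPM in Fl/+ 4-OHT and 229, 259, 200.4, 181 and 257 CPM in Fl/Fl 4-OHT cultures. The groups met only through library 26 of the Fl/+ mice, and the difference was -0.52 ± 0.13 (adjusted p = 0.0115). Lss, the lanosterol synthase, changed by -0.86 ± 0.11 with groups apart (adjusted p = 0.000433).

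Tm7sf2, the sterol reductase that acts after Cyp51 (chr19:6062821-6068373, minus strand), was called lower in each of the 3 comparisons. It was at 88.5, 64.0, 49.6, 43.8 and 65.3 CPM in Fl/+ untreated, 41.6, 43.7, 43.9, 40.1 and 42.8 CPM in Fl/+ 4-OHT, and 18.5, 21.96, 19.6, 16.6 and 18.0 CPM in Fl/Fl 4-OHT cultures. The Fl/Fl libraries lay below all others, and the treated groups differed by -1.15 ± 0.09 (adjusted p = 3.5e-05). Nsdhl, a sterol dehydrogenase on the X chromosome (chrX:72918557-72958514, plus strand), was at 173, 164, 135, 174 and 179 CPM in Fl/+ 4-OHT and 89.1, 88.6, 75.6, 61.2 and 86.3 CPM in Fl/Fl 4-OHT cultures. Its groups were apart (-1.02 ± 0.12, adjusted p = 0.000184).

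Among the other late enzymes, the methyl oxidase Msmo1 changed by -0.93 ± 0.13 and Dhcr7, which carries out a final reduction, by -0.88 ± 0.13, both with groups apart (adjusted p = 0.000611 and 0.000623). Cyp51, the lanosterol demethylase, was at 383, 392, 266, 414 and 447 CPM in Fl/+ 4-OHT and 254, 284, 214, 195 and 296 CPM in Fl/Fl 4-OHT cultures. As for Sqle, the overlap came from library 26 alone (-0.60 ± 0.15, adjusted p = 0.0113). The ketoreductase Hsd17b7 changed by -0.62 ± 0.12 (adjusted p = 0.00376) and the sterol isomerase Ebp by -0.33 ± 0.11 (adjusted p = 0.0362), each with overlapping groups. Sc5d, the sterol desaturase, was at 110.4, 104, 76.4, 121 and 117 CPM in Fl/+ 4-OHT and 90.7, 96.7, 82.2, 70.9 and 89.3 CPM in Fl/Fl 4-OHT cultures and did not pass the test (-0.28, 95% interval -0.56 to -0.01, adjusted p = 0.101). Without Fl/+ 4-OHT library 26, which held its lowest value of that group, Sc5d was called lower (-0.39, adjusted p = 0.00912).

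**Figure D2:**
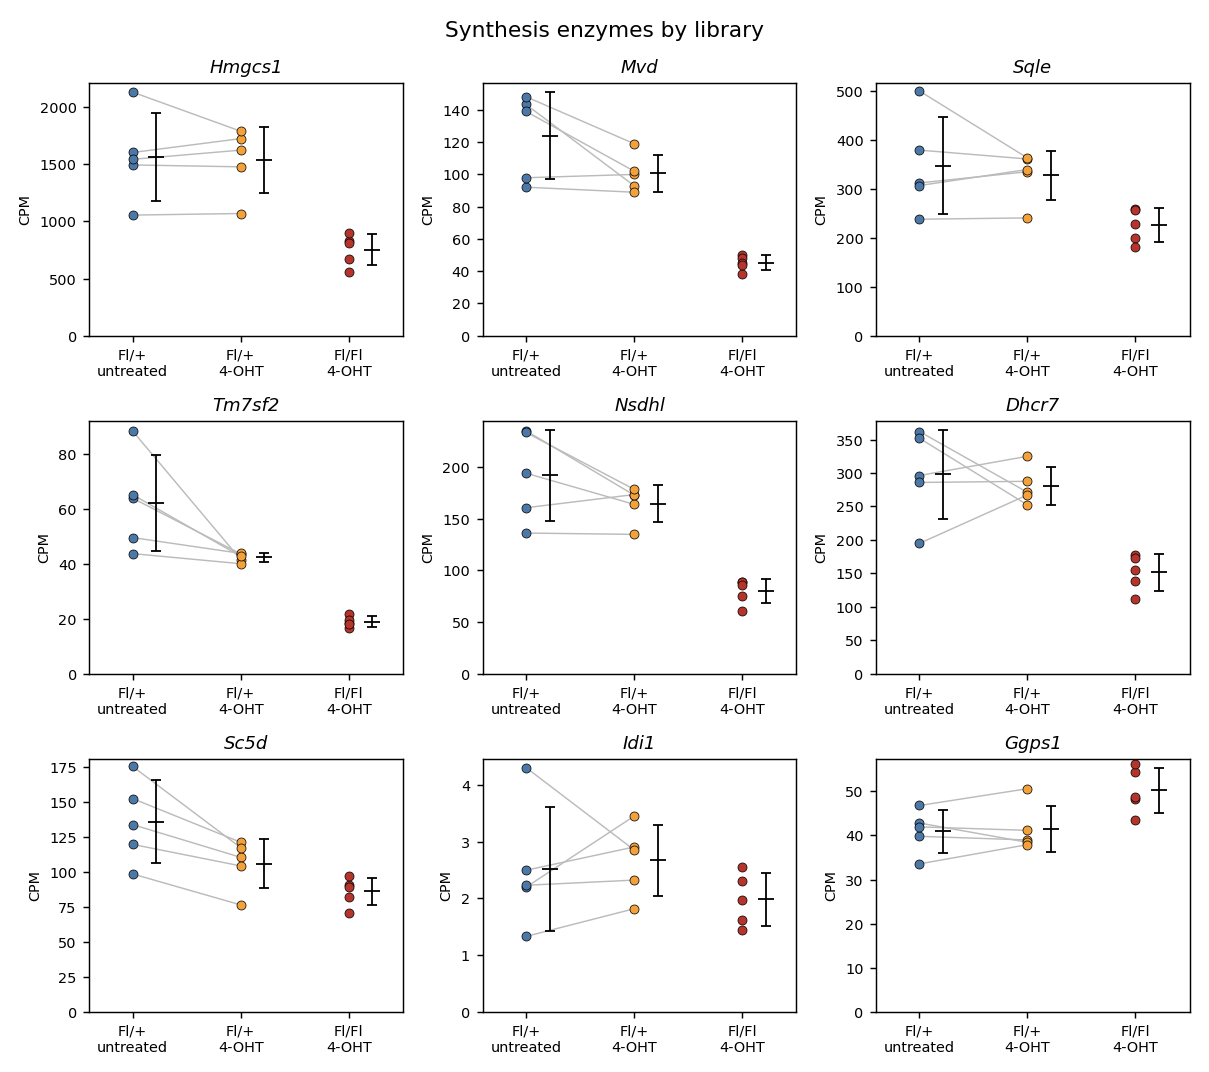
CPM of 9 synthesis enzymes is plotted by library (points) with the mean and SD of each group of 5 (bars), and grey lines join the 2 cultures of each Fl/+ mouse. Hmgcs1, Mvd, Tm7sf2, Nsdhl and Dhcr7 have all Fl/Fl 4-OHT points below all Fl/+ points, whereas Idi1, Sc5d and Ggps1 overlap between the treated groups.

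Within a group, the same libraries were often at the low or high end for many enzymes. Mouse 26 gave the lowest library for 15 of 19 enzymes in the untreated group and for 13 of 19 after 4-OHT, and mouse 36 the highest for 12 of 19 in the untreated group. In the Fl/Fl group, library 37 was the lowest for 14 of 19 enzymes, and it was also the library with the highest glial marker sums, 5403 CPM over 10 oligodendrocyte and 7292 CPM over 8 astrocyte markers. The part of these cells in the enzyme values was not tested. Without Fl/Fl 37, 20 members were lower and 5 higher, and without Fl/Fl 39, whose label was contradicted, 19 were lower and 4 higher. The median coefficient of variation of the enzymes was 24.9% in Fl/+ untreated, 12.5% in Fl/+ 4-OHT and 12.2% in Fl/Fl 4-OHT libraries.

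Genes of SREBP control moved in both directions after Trrap deletion. Of the 5, 2 were lower, 2 were higher and 1 did not pass the test, against 15.0% and 16.8% of all genes tested. The calls of Srebf2 and Srebf1 were lost in 7 and 5 of the 10 fits that left out 1 library, as given with the other settings below. Srebf2, whose product drives the synthesis enzymes, was at 451, 474, 392, 461 and 562 CPM in Fl/+ untreated, 537, 650.0, 549, 521 and 490.4 CPM in Fl/+ 4-OHT, and 423, 513, 437, 379 and 462 CPM in Fl/Fl 4-OHT cultures. The treated groups overlapped through library Fl/Fl 28 and differed by -0.30 ± 0.10 (adjusted p = 0.0441). Insig1, a retention protein that is itself an SREBP target, was at 169, 217, 134, 163 and 184 CPM in Fl/+ 4-OHT and 118, 131, 108, 85.4 and 132 CPM in Fl/Fl 4-OHT cultures, just apart (-0.58 ± 0.14, adjusted p = 0.0109).

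Srebf1, which favours fatty acid genes and is an LXR target, was at 465, 411, 446, 467 and 339 CPM in Fl/+ untreated, 261, 357, 316, 273 and 229 CPM in Fl/+ 4-OHT, and 420.4, 344, 328, 361 and 498 CPM in Fl/Fl 4-OHT cultures. The Fl/+ 4-OHT libraries formed the low group, and Fl/Fl 4-OHT libraries exceeded them by 0.46 ± 0.14 with overlap (adjusted p = 0.0324). Scap, the escort of the SREBPs, was higher by 0.37 ± 0.09 without overlap (adjusted p = 0.009). Insig2 was at 29.6, 33.4, 24.8, 32.6 and 34.6 CPM in Fl/+ 4-OHT and 27.0, 32.1, 33.5, 42.8 and 29.97 CPM in Fl/Fl 4-OHT cultures, with no call (0.11, 95% interval -0.18 to 0.39, adjusted p = 0.558).

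Of the 8 genes of uptake, transport, storage and export, 3 were lower and 4 higher after Trrap deletion, against 15.0% and 16.8% of all genes tested. Stard4, a cytosolic sterol carrier and SREBP target, was at 109.6, 103, 68.1, 99.8 and 156 CPM in Fl/+ untreated, 123, 139, 82.4, 126 and 141 CPM in Fl/+ 4-OHT, and 56.8, 77.0, 60.5, 35.1 and 57.7 CPM in Fl/Fl 4-OHT cultures. It was lower in every Fl/Fl library than in any treated Fl/+ library (-1.07 ± 0.20, adjusted p = 0.00227). The partners of lysosomal cholesterol export moved in opposite directions. Npc2, the soluble carrier in the lysosome, was at 343, 326, 305, 264 and 257 CPM in Fl/+ untreated, 213, 270.2, 253, 207 and 212 CPM in Fl/+ 4-OHT, and 136, 141, 141, 166 and 142 CPM in Fl/Fl 4-OHT cultures, and fell without overlap (-0.66 ± 0.09, adjusted p = 0.000618). Npc1, the membrane protein that accepts cholesterol from it, was at 242, 418, 269, 229 and 251 CPM in Fl/+ untreated, 178, 221, 208, 210.3 and 208 CPM in Fl/+ 4-OHT, and 233, 269.98, 265, 321 and 337 CPM in Fl/Fl 4-OHT cultures. Here the Fl/Fl libraries were all above the treated Fl/+ libraries (0.49 ± 0.10, adjusted p = 0.00487).

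Abca1, which loads cholesterol onto apolipoproteins at the cell surface (chr4:53030787-53159895, minus strand), was at 179, 149.5, 333, 350.4 and 147 CPM in Fl/+ untreated, 74.8, 61.6, 94.3, 105 and 90.2 CPM in Fl/+ 4-OHT, and 178, 171, 139.9, 409.6 and 284 CPM in Fl/Fl 4-OHT cultures. All Fl/+ 4-OHT libraries lay below all libraries of the other groups, and the Fl/Fl 4-OHT cultures exceeded them 2.80-fold (1.48 ± 0.27, adjusted p = 0.00251). Abcg1, the second exporter, had 28 to 410 counts per library and was at 5.68, 5.41, 14.3, 5.77 and 2.21 CPM in Fl/+ untreated, 3.28, 2.15, 5.73, 1.66 and 0.987 CPM in Fl/+ 4-OHT, and 6.31, 4.42, 4.52, 8.16 and 8.33 CPM in Fl/Fl 4-OHT cultures. The treated groups overlapped through mouse 26, and the difference was 1.21 ± 0.41 (adjusted p = 0.0424). Mylip, the ligase that sends lipoprotein receptors to degradation, had 29 to 59 counts per library and was higher by 0.64 ± 0.17 without overlap (adjusted p = 0.0167).

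Vldlr, a receptor for lipoproteins and for reelin, was at 77.0, 108, 68.7, 67.5 and 68.7 CPM in Fl/+ untreated, 124, 229.7, 139, 142 and 149 CPM in Fl/+ 4-OHT, and 67.0, 112, 125, 126 and 70.5 CPM in Fl/Fl 4-OHT cultures. Libraries Fl/Fl 27, 28 and 39 lay below all treated Fl/+ libraries and Fl/Fl 29 and 37 just above the lowest of them, and the difference from Fl/+ 4-OHT was -0.63 ± 0.22 (adjusted p = 0.0464). Soat1, which esterifies cholesterol for storage, ranged from 101 to 149 CPM in Fl/+ 4-OHT and from 114 to 176 CPM in Fl/Fl 4-OHT libraries and was not called (0.16, 95% interval -0.12 to 0.45, adjusted p = 0.364).

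**Figure D3:**
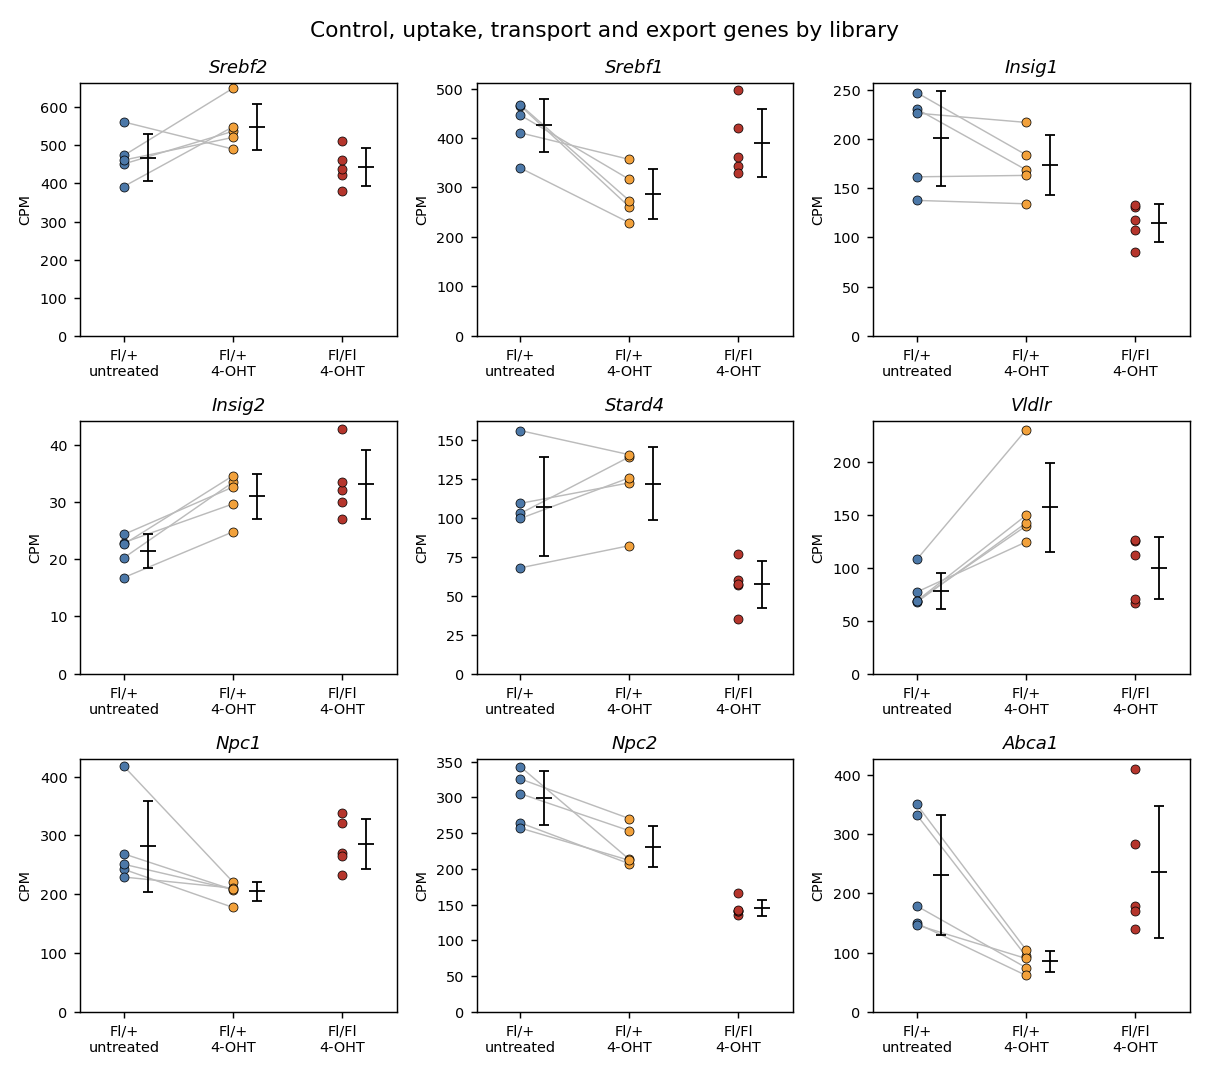
CPM of 9 genes of control, uptake, transport and export is plotted by library (points) with the mean and SD of each group of 5 (bars), and grey lines join the 2 cultures of each Fl/+ mouse. Abca1 is lower after 4-OHT in all 5 Fl/+ mice, and its Fl/Fl 4-OHT points, from 139.9 to 409.6 CPM, lie above all Fl/+ 4-OHT points.

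Of the 28 calls after Trrap deletion, 21 held in every alternative, and 7 near the threshold did not. Leaving out 1 library ended the call of Ebp for Fl/Fl 27, 28 or 29 and Fl/+ 24 or 35 (adjusted p up to 0.075), of Srebf1 for Fl/Fl 27 or 39 and Fl/+ 19, 35 or 36 (up to 0.0844), and of Srebf2 for Fl/Fl 27, 29, 37 or 39 and Fl/+ 19, 24 or 26 (up to 0.0901). The call of Vldlr ended without Fl/Fl 27, 28 or 39 or Fl/+ 24, 26, 35 or 36 (up to 0.0999), that of Abcg1 without any library but Fl/Fl 29 and Fl/+ 26 (up to 0.0943), and that of Ggps1 without any but Fl/Fl 27 and Fl/+ 19 (up to 0.115). Other settings also ended calls. Using no filter on low counts did so for Mylip (adjusted p = 0.0755), Ebp (0.0775), Ggps1 (0.0827) and Srebf2 (0.0653), labelled sex as a covariate for Srebf2 (0.0538) and Vldlr (0.0589), library size alone for Srebf2 (0.0641) and Vldlr (0.0519), and DESeq2 size factors for Ggps1 (0.0528). The 7 higher members became 4 without Fl/Fl 39, without Fl/+ 35 or without Fl/+ 36.

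**Figure D4:**
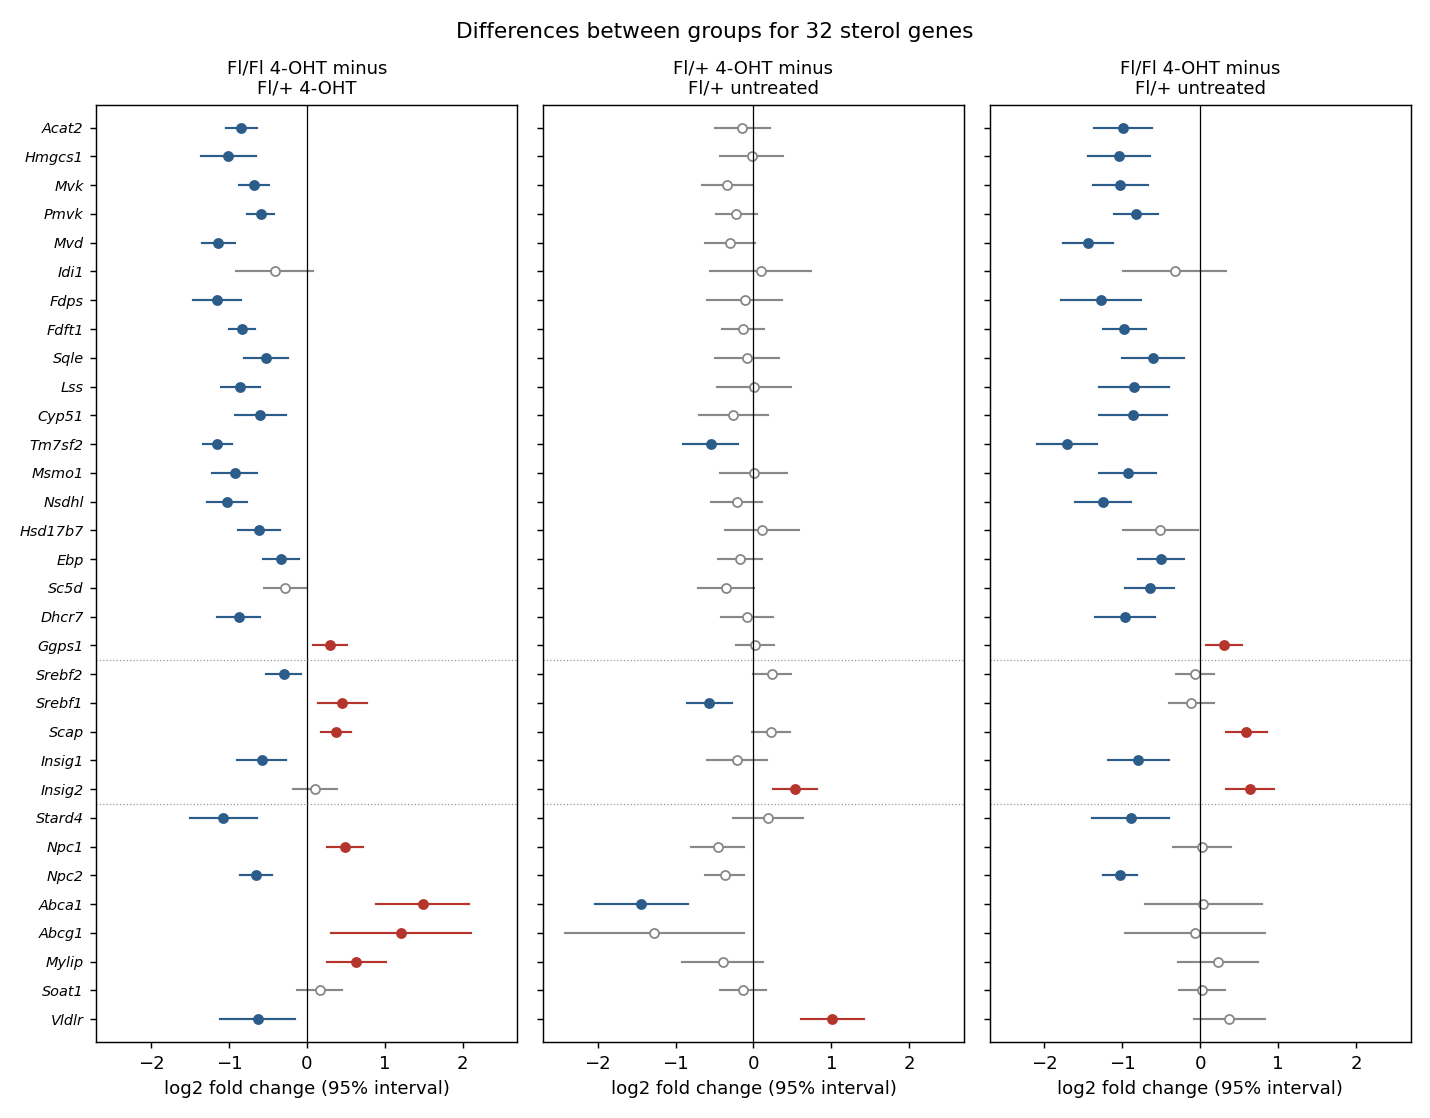
The log2 fold change of each of the 32 members is plotted with its 95% interval for the 3 comparisons, with filled blue or red circles for genes called lower or higher (adjusted p under 0.05, edgeR) and open circles for the rest. The synthesis enzymes lie left of 0 in the left and right panels apart from Ggps1, and mostly near 0 in the middle panel, where Abca1 at -1.44 and Vldlr at 1.01 lie farthest out among the called genes.

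Fl/+ cultures with and without 4-OHT were compared within the same 5 mice. Exposure to 4-OHT, recombinase activity and loss of 1 Trrap allele cannot be told apart in this comparison. Few members passed the test. Without pairing, 3 were lower (Tm7sf2, Srebf1 and Abca1) and 2 higher (Insig2 and Vldlr), against 6.45% of the 14821 genes tested that were lower and 7.34% that were higher. Scaling by library size alone ended the call of Tm7sf2 (adjusted p = 0.0684). With the mouse as a block, 7 were lower (the same 3 with Sc5d, Npc1, Npc2 and Abcg1) and 2 higher, against 11.9% and 13.8%. The groups did not overlap for 2 members in the lower direction (Npc1 and Abca1, background 5.47%) and 2 in the higher direction (background 6.52%). The median of the 19 synthesis enzymes was -0.14, near that of all genes at -0.01. Of 10 oligodendrocyte markers, 6 were higher in the same comparison and 0 lower by edgeR. Among the higher ones was Mbp, which rose by 2.86 ± 0.69 (adjusted p = 0.0205). By DESeq2 and at an unadjusted p under 0.05, 1 oligodendrocyte marker was lower. The summed levels were 3462 to 4511 CPM before and 3371 to 4659 CPM after 4-OHT. Of 8 astrocyte markers, 3 were lower (S100b at -1.91, Aldoc at -0.74 and Gja1 at -0.58) and 1 higher (Gfap at 3.25), and of 9 stem cell markers 3 were lower and 1 higher. Of 8 neuron markers 0 were called by edgeR without pairing, whereas 3 were lower at an unadjusted p under 0.05 and with the block and 1 by DESeq2 (summed 868 to 1150.2 CPM before and 851 to 1033 CPM after 4-OHT). Of 3 ependymal markers tested, 1 was lower (-1.13, groups apart), with sums of 29.7 to 67.8 and 40.6 to 93.4 CPM over all 4. Mitochondrial transcripts took 1.72% to 3.56% of the counts in untreated and 0.849% to 1.74% in Fl/+ 4-OHT libraries. The part of these shifts in the changes below was not tested.

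Abca1 fell in 5 of 5 mice, by 1.44 ± 0.27 on the log2 scale (adjusted p = 0.00631). Abcg1 was lower in 5 of 5 mice, at -1.28 ± 0.52 without pairing (adjusted p = 0.129) and -1.27 ± 0.18 with the block (adjusted p = 0.0019). Srebf1 was lower in 5 of 5 mice (-0.57 ± 0.13, adjusted p = 0.0179), a call that ended without Fl/+ 4-OHT library 19 (-0.52, adjusted p = 0.0511). Mylip, the fourth of the LXR targets named above, was also lower in 5 of 5 mice but was not called (-0.40, 95% interval -0.92 to 0.13, adjusted p = 0.296, and 0.219 with the block).

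Vldlr rose in 5 of 5 mice, by 1.01 ± 0.18 on the log2 scale, and its groups did not overlap (adjusted p = 0.00525). Insig2 rose from 22.9, 20.2, 16.8, 24.3 and 22.6 CPM to the values given above, without overlap and in 5 of 5 mice (0.54 ± 0.13, adjusted p = 0.0193). Npc1 and Npc2 were lower in 5 of 5 mice. Without pairing they missed the threshold (adjusted p = 0.0738 and 0.0501). Npc2 passed it without Fl/+ 4-OHT library 24 or untreated library 36 (-0.42 each, adjusted p = 0.0406 and 0.0306), and both passed it by DESeq2 (adjusted p = 0.0305 and 0.0141). With the block both were called (-0.42 ± 0.11, adjusted p = 0.0266, and -0.37 ± 0.09, adjusted p = 0.0159). Sc5d was lower in 5 of 5 mice as well (-0.36 ± 0.16, adjusted p = 0.171, and -0.35 ± 0.08 with the block, adjusted p = 0.0119). Tm7sf2 fell in 5 of 5 mice (-0.55 ± 0.16, adjusted p = 0.0442), but its unpaired call ended without any 1 library other than those of untreated mice 26 and 35 (adjusted p up to 0.102). For Hmgcs1, by contrast, the difference was -0.02 with a 95% interval from -0.43 to 0.39 (adjusted p = 0.95).

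Against Fl/+ untreated cultures, the Fl/Fl 4-OHT cultures differ in both genotype and treatment, and the comparison shares libraries with each of the others, so its values are only set beside them. Of the members, 19 were lower and 3 higher, against 15.1% and 15.7% of the 15032 genes tested. The groups did not overlap for 14 members in the lower direction (background 11.6%) and for 2, Scap and Insig2, in the higher direction (background 11.5%). The synthesis enzymes again counted 16 lower and 1 higher, with a median of -0.93. Cell type markers moved here too. Of 9 neural stem cell and 8 neuron markers, 5 of each were lower and 0 higher by edgeR, as by DESeq2 and at an unadjusted p under 0.05, and the summed neuron level was 868 to 1150.2 CPM in untreated and 610.0 to 848 CPM in Fl/Fl 4-OHT libraries. The summed stem cell level was 6992 to 10244 and 5631 to 9767 CPM. Of 10 oligodendrocyte markers 1 was lower and 6 higher (2 and 4 by DESeq2), with sums of 3462 to 4511 and 3587 to 5403 CPM. Of 8 astrocyte markers 3 were lower and 1 higher (sums of 3655 to 4916 and 3621 to 7292 CPM), and of 3 ependymal markers tested 2 were higher (29.7 to 67.8 and 77.98 to 107 CPM over all 4). Mitochondrial transcripts took 1.72% to 3.56% of the counts in untreated and 1.36% to 2.19% in Fl/Fl 4-OHT libraries, and the part of these shifts in the sterol values was not tested. Tm7sf2 and Mvd had the lowest values at -1.70 ± 0.18 and -1.44 ± 0.15 (adjusted p = 0.000116 and 0.00011), followed by Fdps at -1.27 ± 0.24 (adjusted p = 0.00251) and Nsdhl at -1.25 ± 0.16 (adjusted p = 0.000409).

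For the exporters and Srebf1, no difference from untreated cells passed the test. Abca1 differed by 0.04 (95% interval -0.71 to 0.79, adjusted p = 0.94), Abcg1 by -0.06 (-0.96 to 0.83, adjusted p = 0.922), Npc1 by 0.03 (-0.34 to 0.40, adjusted p = 0.912) and Srebf1 by -0.11 (-0.40 to 0.17, adjusted p = 0.55). The intervals of Abca1 and Abcg1 are wide. Srebf2 (-0.07), Mylip (0.23), Soat1 (0.02), Vldlr (0.38), Hsd17b7 (-0.51) and Idi1 (-0.33) were not called either. Scap and Insig2 were higher by 0.59 ± 0.12 and 0.64 ± 0.14 (adjusted p = 0.00417 and 0.00581), and Npc2 was lower by 1.03 on the log2 scale (-1.03 ± 0.10, adjusted p = 8.89e-05). The call of Ggps1 (0.31 ± 0.11, adjusted p = 0.0447) ended without any 1 library but Fl/Fl 27 and untreated 19 (adjusted p up to 0.1), and that of Sqle (-0.61 ± 0.18, adjusted p = 0.0258) without Fl/Fl 27, 29 or 37 (up to 0.0631). Ggps1 also lost it with labelled sex (0.0576) or without the low-count filter (0.0679), and Sqle with library size alone (0.0516). Hsd17b7 was called only without untreated library 26 (-0.63, adjusted p = 0.0438).

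Neighbouring pathways were read from the same fits, and their counts stand against the shares of all genes given above for edgeR. By DESeq2, 18.0% of genes were lower and 18.4% higher after Trrap deletion, 9.96% and 10.2% with 4-OHT, and 18.3% and 17.8% in deleted against untreated cultures. At an unadjusted p under 0.05 in edgeR these shares were 20.1% and 22.8%, 14.5% and 14.8%, and 20.7% and 21.6%. Of 16 genes of fatty acid synthesis and desaturation, 6 were lower and 0 higher after Trrap deletion by edgeR, with a median of -0.27. At an unadjusted p under 0.05, 9 were lower and 0 higher, as by DESeq2. The elongase Elovl6 had the lowest value (-1.25 ± 0.15, adjusted p = 0.000242), and Acly, which supplies cytosolic acetyl-CoA to both pathways, changed by -0.76 ± 0.10 (adjusted p = 0.000485). Acss2, another source of acetyl-CoA, changed by -0.72 ± 0.20 (adjusted p = 0.0185) and Pcyt2 by -0.76 ± 0.12 (adjusted p = 0.0011). With 4-OHT in Fl/+ cultures, 3 were lower and 0 higher by edgeR without pairing, whereas 2 were higher at an unadjusted p under 0.05 and 1 by DESeq2. The lower genes were Mid1ip1 at -0.88 ± 0.09, the fatty acid synthase Fasn at -0.81 ± 0.11 and the desaturase Fads2 at -0.51 ± 0.11 (adjusted p = 0.000398, 0.00127 and 0.0112). With the block, 4 were lower and 2 higher. Against untreated cultures, 9 were lower and 0 higher in Fl/Fl 4-OHT cultures by edgeR (1 higher at an unadjusted p under 0.05 and 0 by DESeq2), with Fasn at -1.31 ± 0.11 (adjusted p = 4.41e-05).

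Of 22 other genes of sterol handling, 21 could be tested, and 3 were lower and 7 higher after Trrap deletion. Cyp46a1, which hydroxylates cholesterol for export from brain cells, rose by 1.16 ± 0.19 (adjusted p = 0.00126), the transporter Abca5 by 0.78 ± 0.12 (adjusted p = 0.001) and Nr1h3, which encodes an LXR, by 0.78 ± 0.25 (adjusted p = 0.0335). The reelin and lipoprotein receptor Lrp8 fell (-0.88 ± 0.09, adjusted p = 0.000123). In the 4-OHT comparison 1 was called, the endosomal sterol carrier Stard3 (-0.47 ± 0.10, adjusted p = 0.00985), and against untreated cultures 2 were lower and 6 higher. Of 12 genes of SREBP processing and turnover, 3 were lower and 4 higher after Trrap deletion. Nfyb, a subunit of the CCAAT-binding nuclear factor Y, changed by -0.55 ± 0.08 (adjusted p = 0.000671), and the protease Mbtps1, which cuts SREBPs, by 0.40 ± 0.08 (adjusted p = 0.00523). With 4-OHT 1 of these was called, Nfyc at -0.36 ± 0.09 (adjusted p = 0.028), although 2 were lower and 4 higher both by DESeq2 and with the block, and against untreated cultures 2 were lower and 2 higher. Of 10 genes of the isoprenoid branches, 2 were lower and 1 higher after Trrap deletion, against 15.0% and 16.8% of all genes, and 2 lower and 4 higher at an unadjusted p under 0.05 (all genes 20.1% and 22.8%), with Pdss1, of the ubiquinone side chain, at -0.60 ± 0.14 (adjusted p = 0.00901). With 4-OHT, 0 of them were called by edgeR without pairing, although 1 was lower and 1 higher both at an unadjusted p under 0.05 and by DESeq2, and 1 was higher with the block, and against untreated cultures 1 was lower and 2 higher.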

How the data were processed

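The authors made stranded mRNA libraries from 15 aNSC cultures and read them as short single-end reads, each lane carrying every library. The authors mapped reads to GRCm38 with STAR 2.5.4b and assigned uniquely mapped reads to Ensembl genes with featureCounts 1.5.0 in stranded mode (versions from the submitters' processing notes). What was deposited are raw counts of reads for each gene and library, not normalized. Multi-mapping reads were dropped, so genes with near-identical copies are undercounted. There were no molecular identifiers, so reads are not independent molecules. All 15 columns were used, and every row named a gene. GENCODE M21 gave symbols and GRCm38 coordinates for 53620 of 53801 genes.

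Groups, sex and mouse numbers came from the labels. The labels and the study's methods differ on the dose of 4-OHT and on its schedule, so no dose is stated here. The libraries of a group came from different mice, so p-values and intervals measure the spread between these mice. The 3 comparisons were fitted separately, each on its own 10 libraries and all genes, with edgeR 4.0.16 in R 4.3.3 (filterByExpr with a minimum count of 10, TMM, quasi-likelihood F test without covariates, Benjamini-Hochberg adjustment over all genes tested, called under 0.05). The study used DESeq2, which was run as an alternative. The mouse numbers pair the Fl/+ groups. Over 14821 genes, departures from the group mean correlated at r = 0.204 to 0.606 between cultures of 1 mouse (5 of 5 best with their own number) and at -0.514 to 0.339 between mice. The replicate block by mouse was therefore fitted too.

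As alternatives, DESeq2 1.42.0 (Wald test) was run, its size factors or library size alone replaced TMM in edgeR, and the other settings were no low-count filter, labelled sex or the range of mouse numbers (below or above 30) as a covariate, the block, and leaving out each library. The members, role groups and gene lists were chosen with earlier results of these data known. All 32 members are named, and of each pathway list the called genes with the largest absolute change, at most 4 per comparison. Single marker genes were picked out with their values in view. The edgeR procedure was tested on simulated data. Promoter windows are those of RefSeq for GRCm38.p6, and shared sequence was the share of 51-base windows of a gene's exons also found in another transcript.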

Additional observations from a re-analysis of the deposited data

Results flagged for a closer look

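Of the 96 sets of 5 libraries (32 members in 3 groups), 9 held a library far from the other 4 by Dixon's ratio on log2(CPM + 0.5), where chance alone flags about 1 in 20. Mouse 26 after 4-OHT was low for Sqle (240.6 CPM, the others 335 to 363), Lss (164 CPM, the others 228 to 252) and Stard4 (82.4 CPM, the others 123 to 141). Mouse 19 after 4-OHT was high for Ggps1 (50.6 CPM, the others 37.9 to 41.1) and low for Npc1 (178 CPM, the others 208 to 221). Untreated mouse 24 was high for Npc1 (418 CPM, the others 229 to 269) and Vldlr (108 CPM, the others 67.5 to 77.0). In the Fl/Fl group, library 28 was high for Lss (143 CPM, the others 113 to 121) and library 37 high for Npc2 (166 CPM, the others 136 to 142).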

How the results depend on the processing

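Leaving out 1 library gave 18 to 20 members lower and 4 to 6 higher after Trrap deletion, 1 to 3 lower and 2 to 2 higher with 4-OHT, and 18 to 20 lower and 2 to 3 higher in deleted against untreated cultures. With 4-OHT 1 member was lower without Fl/+ 4-OHT library 19. The 3 members lower with 4-OHT became 5 by the DESeq2 Wald test, 6 with labelled sex, 5 with the mouse number range, and 7 with the replicate block by mouse. Apart from leaving out 1 library, the other alternatives left all counts within 1.5 times. Calls held in every alternative for 21 of 28 members after Trrap deletion, 3 of 5 with 4-OHT and 20 of 22 in deleted against untreated cultures, and no called member changed sign. The uncalled values that crossed 0 lay near it. With 4-OHT they were Hmgcs1 (0.0311 by library size alone), Lss (-0.000735 by DESeq2 and -0.000696 by its size factors) and Msmo1 (-0.00704 by DESeq2, -0.00700 by its size factors and -0.00138 without the filter). In deleted against untreated cultures they were Srebf2 (0.0254 by library size alone), Abca1 (-0.0591 with sex and -0.0578 with the mouse number range) and Abcg1 (0.0018 with sex and 0.0248 by library size alone). The cause was not tested. Leaving out 1 library moved the following across 0. After Trrap deletion Insig2 ranged from -0.0146 to 0.17, below 0 only without Fl/Fl 37. With 4-OHT the ranges were -0.14 to 0.11 for Hmgcs1, -0.0703 to 0.37 for Idi1, -0.26 to 0.0285 for Fdps, -0.19 to 0.0861 for Sqle, -0.13 to 0.22 for Lss, -0.12 to 0.16 for Msmo1, -0.0145 to 0.34 for Hsd17b7 and -0.0522 to 0.0679 for Ggps1. In deleted against untreated cultures they were -0.12 to 0.00694 for Srebf2, -0.0401 to 0.21 for Npc1, -0.25 to 0.23 for Abca1, -0.29 to 0.43 for Abcg1 and -0.0657 to 0.0969 for Soat1. Scaling by library size alone turned the split of all calls from 2520 higher and 2253 lower to 2848 and 1951 after Trrap deletion, from 1088 and 956 to 1396 and 712 with 4-OHT, and from 2357 and 2263 to 3150 and 1603 in deleted against untreated cultures. Low counts limit the precision of Idi1 (38 to 117 per library), Mylip (29 to 59) and Abcg1 (28 to 410).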
